A study of Mus musculus with 2 samples.

Results

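The genes described here are those of the Bcl2 family, the caspases and the inhibitor of apoptosis proteins (IAPs), together with the caspase platform Apaf1 and the caspase-8 regulator Cflar. They were chosen by gene name, with earlier results of these data known. Every spot was read that is not a control and is named for a caspase, for Bcl2 or a Bcl2-like gene, or for a Birc gene. Spots named for the other listed members of these families were read as well. This gave 40 genes with 55 probes, out of 30175 gene names on the array. Of these genes, 29 had 1 probe and 11 had several.

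Apoptosis through mitochondria is set by the balance within the Bcl2 family. Anti-apoptotic proteins such as Bcl2, Bcl2l1 (Bcl-xL) and Mcl1 hold back the pore-forming effectors Bax and Bak1, and the BH3-only proteins, such as Bid, Bcl2l11 (Bim) and Bbc3 (Puma), release or activate these effectors. The pores let cytochrome c out of the mitochondria, Apaf1 then assembles caspase-9, and the executioner caspases are cleaved, while the IAPs act against the caspases or on signalling from death receptors. Hepatocytes are known as cells in which death receptor signals need Bid to reach the mitochondria, and in which Mcl1 and Bcl2l1 are required for survival.

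The study compared biphenotypic hepatocytes, which appear in chronically injured mouse livers, with mature hepatocytes (MHs) in search of markers for the former. Expression was measured with 1 single-colour Agilent array of MHs from healthy livers and 1 array of Sox9+EpCAM- cells from livers injured by a diet that contains 3,5-diethoxycarbonyl-1,4-dihydrocollidine, a compound abbreviated DDC that injures bile ducts. According to the methods, both healthy and injured livers were those of Sox9-EGFP mice, which carry a green fluorescent reporter for Sox9, a transcription factor of bile duct cells. MHs were obtained by low-speed centrifugation and a Percoll gradient with no sort, whereas Sox9+EpCAM- cells were sorted as cells with the reporter's fluorescence and without the surface protein EpCAM, so that the reporter stands in for Sox9 in that group. Both samples are labelled male. The age, the number of mice behind each array and the length of DDC feeding for these arrays are not given in the sources used here. Diet, injury, way of isolation and array all differ between the groups, as does sex by the markers given below, and their effects cannot be told apart. With 1 array a group there is no replicate, so no test was made, and each difference describes these arrays.

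Among 43020 spots other than controls, the signal was well above background for 27523 in MHs and for 32158 in Sox9+EpCAM- cells. Signals are given below as deposited, that is, as processed Cy3 intensity before scaling. The 75th percentile was an intensity of 741 for MHs and of 1110 for Sox9+EpCAM- cells, and log2 differences (Sox9+EpCAM- minus MH) and folds were computed after each array had been divided by that value. The lowest signal well above background was 27.8 and 18.4, respectively. A gene below background on 1 array has only a bound, written as "at least", and a gene below background on both arrays has no difference. The sex markers went against 1 of the labels: Xist was detected in MHs alone, and of 5 probes of 4 Y-linked genes 0 were detected in MHs and 4 in Sox9+EpCAM- cells. Hepatocyte markers were present on both, with a log2 difference of -0.87 for Alb and -0.23 for Hnf4a and a median of -1.06 over 8 genes, of which 8 were below 0. Among cholangiocyte markers, Epcam, against which the cells had been sorted, had a signal of 139 in MHs and of 2770 in Sox9+EpCAM- cells, which is 13.3-fold higher. The 7 cholangiocyte markers were above 0 in 5 and below 0 in 2, from -1.0 (Cftr) to 6.93 (Spp1), with Krt19 at 0.42 and Krt7 at -0.23, and their summed scaled level went from 2.268 to 48.86, the latter mostly from Spp1. Fibroblast or stellate cell markers were above 0 in 9 of 10 genes, with Pdgfrb below background on both arrays, and their sum went from 12.19 to 54.37. In contrast, endothelial markers were below 0 in 5 of 6 genes, and their sum went from 6.434 to 2.03. Leukocyte markers were above 0 in 2 and below 0 in 14 of 19 genes, and their sum, most of it from Itgam, went from 162.1 to 92.67. The part of other cell types in the differences below was not tested.

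Of the 40 genes, 28 were measured above background on both arrays, 5 were below background in MHs alone, 1 in Sox9+EpCAM- cells alone and 5 on both, and 1 was left out because the scanner software had marked its spot as not uniform. Among the 34 genes above background on at least 1 array, 11 had a level at least 2-fold higher than in MHs (32.4%, against 14.2% of all 23417 such genes on the array), 5 were at least 2-fold lower (14.7%, against 16.8%) and 16 of those measured on both arrays differed by less than 2-fold; for Casp9 the bound was under 2-fold, and for Casp14 no fold could be given. The genes that entered by a bound passed the background filter only through the array where they were high, so the genes measured on both arrays give the fairer count: 8 of 28 were at least 2-fold higher (28.6%, against 11.8% of 19235 genes) and 4 at least 2-fold lower (14.3%, against 17.4%). Past 4-fold, 3 of the 34 were higher (8.82%, against 5.59%) and 3 lower (8.82%, against 5.58%), and of the 28 there were 3 higher (10.7%, against 3.94%) and 2 lower (7.14%, against 4.75%). The median log2 difference of the 28 was 0.26, with quartiles at -0.67 and 1.06, and that of all measured genes was -0.19, with quartiles at -0.74 and 0.39. At 2-fold the members' share of higher genes was above that of the array and their share of lower genes was not, whereas past 4-fold both shares were above it, on counts of 2 or 3 genes. With scaling to Gapdh, 12 members were higher and 5 lower, while over the whole array the higher genes went from 3320 to 4375 and the lower ones from 3925 to 2893. With normexp background correction, 6 members were higher and 5 lower, and the genes at least 2-fold higher over the whole array went from 3320 to 2087. By the error model of the scanner software, the error of a member's log2 difference ran from 0.204 to 0.305 (median 0.207). It covers the reading of a spot and not the spread between mice or cell preparations.

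**Figure D1:**
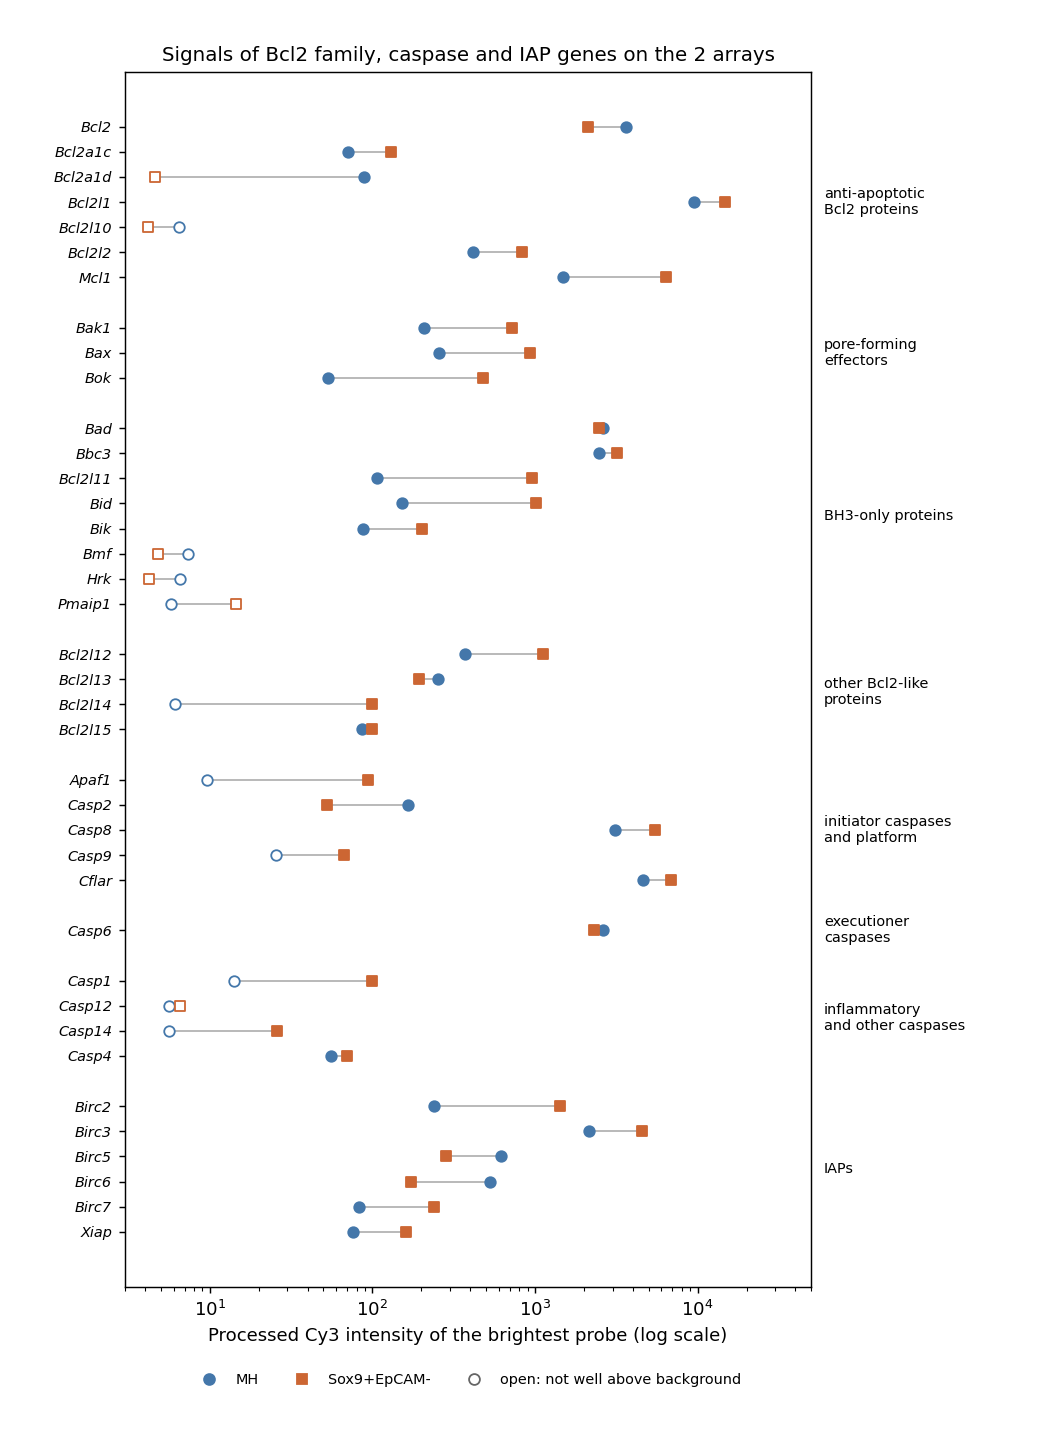
Processed Cy3 intensity (log axis, before scaling) of the brightest probe of the genes described, grouped by role, with circles for MHs, squares for Sox9+EpCAM- cells and open symbols for signals not well above background. Bax, Bak1 and Bok all lie further right in Sox9+EpCAM- cells, whereas Bcl2, Casp2, Birc5 and Birc6 lie further left.

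All 3 genes of the pore-forming effectors had levels at least 2-fold above those of MHs, as had 11.8% of all measured genes. Bax, which oligomerises in the outer mitochondrial membrane, had a signal of 258 in MHs and 931 in Sox9+EpCAM- cells, so that the log2 difference was 1.27 (2.41-fold). Bak1, its partner that resides in that membrane, was read at 209 and 718, a log2 difference of 1.20 (2.29-fold). Bok, a related effector that acts independently of the others, gave 53.6 and 482, a log2 difference of 2.59 (6.0-fold). The effectors thus differed in the same direction, and Bok had the largest difference among the 28 measured members, with 97.9% of all measured genes below it. After normexp background correction Bok was at 1.61, under 4-fold and below Bcl2l11 (2.01), Bid (1.77) and Birc2 (1.73), and Bak1 was at 0.95, under 2-fold. The median of 1.27 ran from 1.06 to 1.53 over the other scalings and this correction. Each has 1 probe. In bulk RNA of this kind, more cells of a type and more RNA per cell cannot be told apart.

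Among the 8 BH3-only genes, 2 were at least 2-fold higher, 0 were lower by that much, 3 differed by less, and 3 were below background on both arrays; over all measured genes, 11.8% were higher and 17.4% lower. Bcl2l11, which encodes Bim and binds all anti-apoptotic relatives, had a signal of 107 in MHs and 953 in Sox9+EpCAM- cells, with a log2 difference of 2.57 (5.95-fold). Its other probe was below background on both arrays, at 9.52 and 12.6, and no RefSeq transcript was matched to it. Bid, the substrate of caspase-8 that links death receptors with mitochondria, was read at 152 and 1010, a log2 difference of 2.15 (4.44-fold). Bcl2l11 and Bid together with Bok are the 3 members past 4-fold higher. However, Bok and Bid were under 4-fold after normexp correction, Bid also in the deposited table (1.97). Bcl2l11 was under 4-fold with the median of its probes (1.20), which includes the undetected one.

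The other BH3-only genes did not follow Bcl2l11 and Bid. Bbc3, a target of p53, had high signals of 2490 and 3200 and a log2 difference of -0.22. Bad, which is held inactive by phosphorylation downstream of growth factors, gave -0.66 and -0.61 by its 2 probes, and Bik, a BH3-only protein of the endoplasmic reticulum, gave 0.63. Bmf, Hrk and Pmaip1, the last encoding Noxa, were below background on both arrays, so for them no difference was detectable. Over the effectors and BH3-only genes together, 5 of the 8 measured were at least 2-fold higher and 0 at least 2-fold lower, beside 11.8% and 17.4% of all measured genes, and their median log2 difference was 1.23, beside -0.19. The BH3-only genes alone had a median of 0.63, or 0.20 after normexp correction, which also took Bak1 under 2-fold.

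The anti-apoptotic genes went in different directions. Mcl1, a short-lived protein that binds Bim and Bak1, had a signal of 1490 in MHs and 6420 in Sox9+EpCAM- cells, with a log2 difference of 1.52 (2.88-fold). A second probe of Mcl1 was read at 1120 and 4600, a log2 difference of 1.46. Both lie on the gene's strand of chromosome 3, and their first 30 of 60 bases are shown here because Mcl1 was the member past 2-fold upward that had a pair of measured probes; coordinates are mm9, the build of the array design, and all letters are in lower case as nothing is marked:
Mcl1, chr3:95466855-95466914 (+ strand): gctgcttggaaagatggctctcagcaaaat
Mcl1, chr3:95465543-95465602 (+ strand): tgcagcttctctagttagaaatgtatttct

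Bcl2 went the other way. Its signal was 3640 in MHs and 2120 in Sox9+EpCAM- cells, with a log2 difference of -1.36 (2.57-fold lower). Bcl2l1, which encodes Bcl-xL, was bright on both arrays at 9510 and 14700, which after scaling is a log2 difference of 0.05, and its other probe at 181 and 345 gave 0.35. Of the best known anti-apoptotic genes, therefore, Mcl1 was higher, Bcl2 lower and Bcl2l1 differed by less than 2-fold.

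Bcl2l2 (Bcl-w) and Bcl2a1c, further anti-apoptotic relatives, differed by less than 2-fold, at 0.43 and 0.29. The second probe of Bcl2l2 was below background on both arrays, and the median of its probes, which includes this undetected one, was -0.37. The probe named Bcl2a1d lists transcripts of Bcl2a1a, Bcl2a1b and Bcl2a1d, near-identical copies that it cannot tell apart. Its signal was 88.3 in MHs and 4.62, not well above background, in Sox9+EpCAM- cells, hence at least 7.19-fold lower, or -1.47 on the log2 scale after normexp correction. Bcl2a1 genes are known from blood cells, and the leukocyte markers ran from -5.54 (Laptm5) to 3.85 (Cd68) with a median of -1.41, while Ptprc, which encodes the pan-leukocyte protein CD45, differed by -0.24; their part in the difference of Bcl2a1d was not tested. Bcl2l10 was below background on both arrays. The 5 anti-apoptotic genes measured on both arrays had a median log2 difference of 0.29, from -1.36 to 1.52.

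Of the 4 other Bcl2-like genes, which do not fall plainly into either class, Bcl2l12 had signals of 370 and 1120, a log2 difference of 1.01 (2.02-fold), just past the rule of size. It was under 2-fold after normexp correction (0.92), with scaling to the median of measured probes (0.99), after quantile normalization (0.98) and in the deposited table (0.84). Bcl2l13, a mitochondrial outer membrane protein with a part in mitophagy, lay just short of the rule on the other side at 252 and 194, a log2 difference of -0.96 (1.95-fold lower), and passed it after quantile normalization (-1.09) and in the deposited table (-1.14). Both genes sit at the threshold, and their place on either side of it changed with these settings. Bcl2l14 was not well above background in MHs at 6.14 and was read at 99.0 in Sox9+EpCAM- cells, at least 2.38-fold higher, but its other probe was below background on both arrays and the bound was 0.40 on the log2 scale after normexp correction. Bcl2l15 gave -0.39 by its brightest probe. Of its other probes 1 was above background in Sox9+EpCAM- cells alone (7.39 and 29.2), and the remaining one was below it on both arrays. The median of all, 0.39, is the value of that undetected probe.

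**Figure D2:**
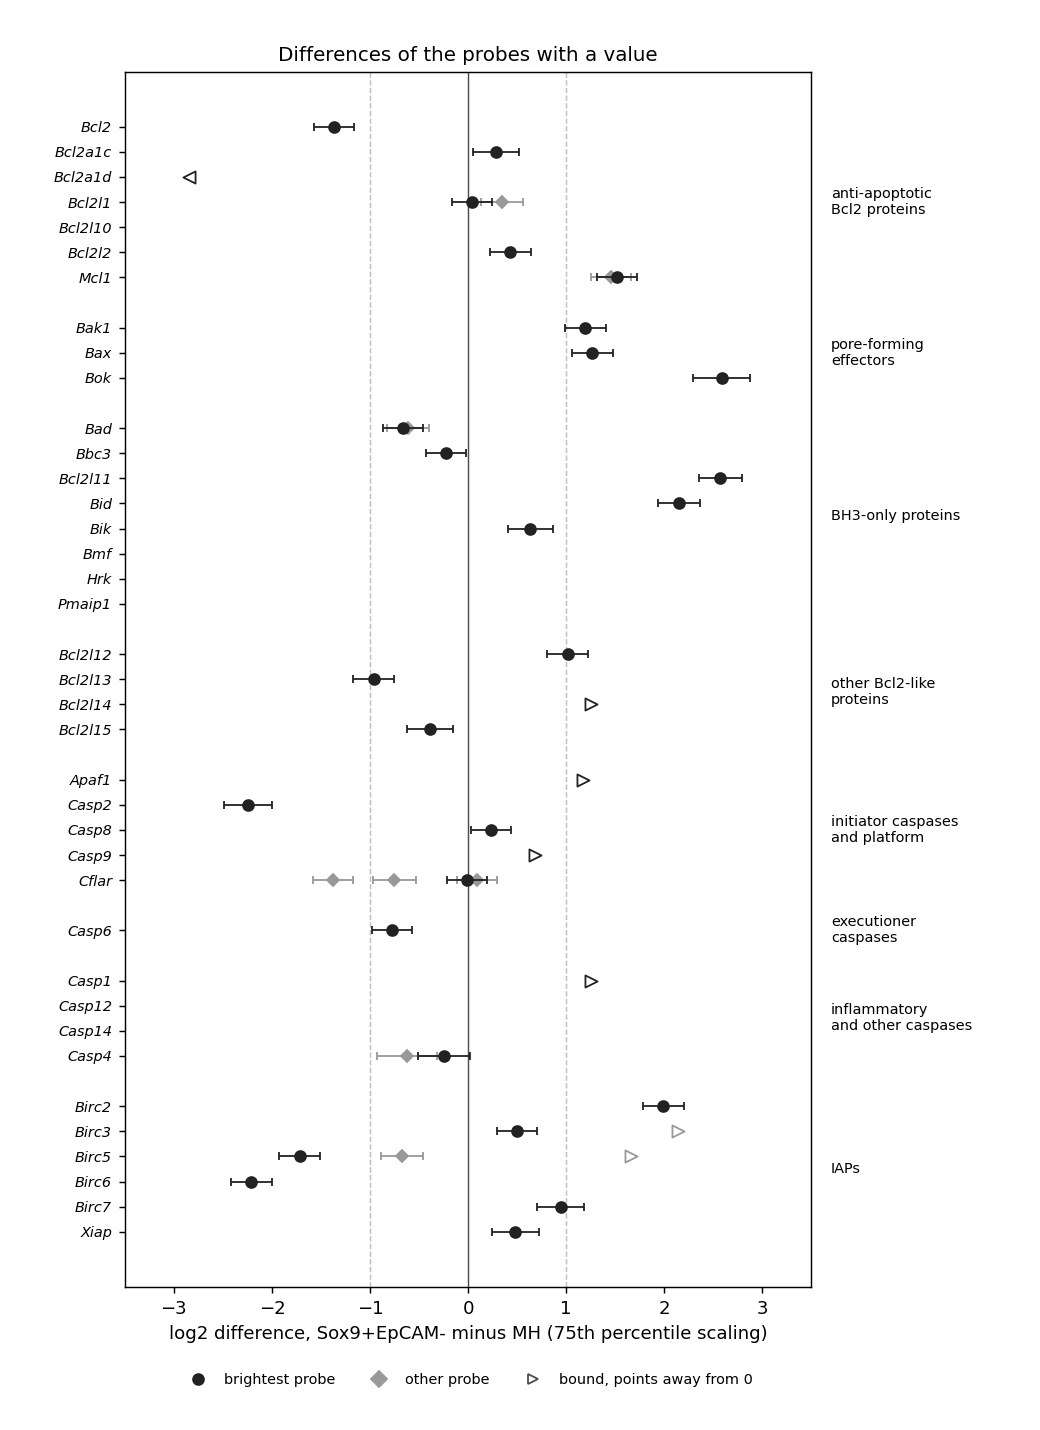
Log2 difference (Sox9+EpCAM- minus MH, after scaling to the 75th percentile) of the probes with a value, for the genes described, by role. Black circles are the brightest probe of a gene, grey diamonds its other probes, bars the error of the difference by the scanner software's error model, arrowheads bounds that point away from 0, and dashed lines mark 2-fold; all effectors lie right of the upper line, while the 4 probes of Cflar and the 3 of Birc5 spread over more than 2-fold.

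Among the caspases measured on both arrays, Casp2, Casp4 and Casp6 had differences below 0 and Casp8 a small one above 0, although Casp4 moved to 0.02 with scaling to Gapdh. Casp2 passed the rule of size. Casp2, an initiator caspase with a role in the response to DNA damage, had a signal of 166 in MHs and 52.5 in Sox9+EpCAM- cells, with a log2 difference of -2.24 (4.74-fold lower). This was the largest difference downward among the 28 measured members, but after normexp correction it was -1.52, under 4-fold, and Birc6 was lower at -1.81.

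Casp8, the initiator at death receptors, was bright on both arrays at 3100 and 5450, a log2 difference of 0.23. Casp9, the initiator activated on Apaf1, was read at 25.4, not well above background, in MHs and at 67.1 in Sox9+EpCAM- cells, at least 1.61-fold higher. After normexp correction no bound could be given for Casp9. Apaf1 itself, the platform that assembles with cytochrome c, was at 9.62, below background, in MHs and at 93.6 in Sox9+EpCAM- cells, at least 2.25-fold higher. Both MH signals were under the lowest measurable one of 27.8, and the bound for Apaf1 dropped under 2-fold after normexp correction (0.28 on the log2 scale), quantile normalization (0.96) and in the deposited table (0.99).

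Casp6, an executioner caspase that cleaves nuclear lamins, was read at 2630 and 2310, a log2 difference of -0.77 (1.71-fold lower), which is under the rule of size.

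Among the inflammatory caspases, Casp1, which processes interleukin-1 beta, was at 14.1, not well above background, in MHs and at 99.2 in Sox9+EpCAM- cells, at least 2.38-fold higher, and at 0.26 on the log2 scale after normexp correction. Casp4, the sensor of intracellular lipopolysaccharide, gave -0.24 and -0.62 by 2 probes that overlap almost wholly. Casp12 was below background on both arrays. Casp14, a caspase of the skin, was above background only in Sox9+EpCAM- cells at 26.0, which is under the lowest measurable level of the MH array after scaling, so that no fold is given.

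Cflar encodes cFLIP, a catalytically inactive relative of caspase-8 that competes with it at death receptors and is made as long and short splice forms. Its 4 probes did not give 1 answer. A pair of bright probes close together showed almost no difference, at 4620 and 6870 (-0.01) and at 4400 and 7000 (0.09). Another, farther upstream, was read at 1600 and 923, a log2 difference of -1.38 (2.60-fold lower), though its transcripts in the array design are from GenBank and Ensembl with none from RefSeq, and the last at 165 and 147, a log2 difference of -0.75. The probes spanned 1.46 on the log2 scale, well over the error of each, which was between 0.204 and 0.222. Their first 30 bases are shown in the order of these values, as the position along chromosome 1 (mm9) goes with the split:
Cflar, chr1:58810660-58810719 (+ strand): tcatggacaaagtgtatgcgtggaacagtg
Cflar, chr1:58811116-58811175 (+ strand): gatttgacactgaatgtaacttgagactta
Cflar, chr1:58770546-58770605 (+ strand): gggacttgggaagttggagagctgactcct
Cflar, chr1:58789994-58790053 (+ strand): ctttcttgctgatgtataaattgcctcctt
In 4 of the 6 genes with at least 2 measured probes, the probes lay within 0.5 of each other, and Cflar and Birc5 were the exceptions.

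The 6 IAP genes were all measured, and 1 was at least 2-fold higher, 2 were lower and 3 differed by less, beside 11.8% higher and 17.4% lower over all measured genes. Birc2, which encodes cIAP1, a ubiquitin ligase of the tumour necrosis factor receptor complex, had a signal of 240 in MHs and 1430 in Sox9+EpCAM- cells, with a log2 difference of 1.99 (3.98-fold). Birc6, a very large ubiquitin-conjugating IAP, went the other way with 532 and 172, a log2 difference of -2.21 (4.63-fold lower). Xiap, a direct inhibitor of caspases, was read at 76.5 and 160, a log2 difference of 0.48, and Birc7 at 83.3 and 240, a log2 difference of 0.94, which passed 2-fold with scaling to Gapdh (1.21). The IAPs thus spread to both sides, with a median of 0.49.

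Birc3 and Birc5 depended on the probe. Birc3, which encodes cIAP2, a target of NF-kB, gave 2150 and 4560 by its brightest probe, a log2 difference of 0.50 (1.42-fold). Its other probe was at 11.9, below background, in MHs and at 184 in Sox9+EpCAM- cells, at least 4.42-fold higher, but the array design gives GenBank and Ensembl transcripts and no RefSeq one for this probe. Birc5 encodes survivin, which is made in dividing cells and serves in mitosis. The brightest of its 3 probes was read at 621 and 283, a log2 difference of -1.72 (3.29-fold lower), the next at 170 and 160, a log2 difference of -0.67, and the last at 6.21, below background, and 132, at least 3.17-fold higher. For Birc5 no direction holds over its probes, and the median of its probes was -0.67. Their first 30 bases are printed because the call for each gene turns on which of these (mm9) is read:
Birc5, chr11:117714057-117714116 (+ strand): tcttgaaactggacagacagagagccaaga
Birc5, chr11:117711112-117711171 (+ strand): tgatttggcccagtgttttttctgctttaa
Birc5, chr11:117716978-117717037 (+ strand): tgctgataattttgtcctgatgagttttcc
Birc3, chr9:7854409-7854468 (- strand): agaactacaggaccgtcagtgacctcgtta
Birc3, chr9:7856162-7856221 (- strand): acagataatgcccagctaatagaacagggt
Of 14 markers of proliferating cells, 8 were measured, and their median log2 difference was -0.31. Mki67 was at least 2.86-fold higher and Ccnb2 2.36-fold higher, whereas Tpx2 was 3.09-fold lower, and Ccna2, Aurkb and Bub1 were below background on both arrays. The summed scaled level of the list was 1.515 in MHs and 1.494 in Sox9+EpCAM- cells; its part in the values of Birc5 was not tested. None of the 55 probes shared 20 bases with a probe of another gene (0 probes), and 0 were saturated.

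**Figure D3:**
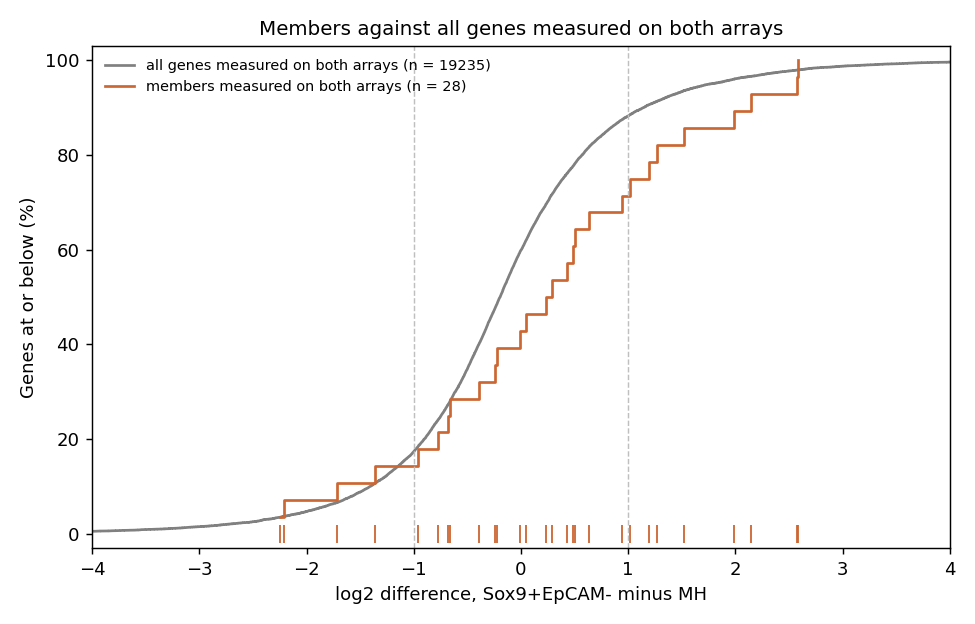
Share of genes (%) at or below each log2 difference (Sox9+EpCAM- minus MH) for the 28 members measured on both arrays (orange steps and ticks) and for all 19235 measured genes (grey); dashed lines mark 2-fold. The orange steps follow the grey curve near its lower end and lie right of it over the upper part, with medians of 0.26 and -0.19.

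Several members lie next to each other in the genome, and neighbours did not always share a direction. The probes of Bid, chr6:120843464-120843523 on the minus strand, and Bcl2l13, chr6:120842801-120842860 on the plus strand (mm9), lie 603 bases apart on facing strands, and their log2 differences were 2.15 and -0.96. Birc2 and Birc3, paralogs on the same strand of chromosome 9 with probes 35.7 kb apart, gave 1.99 and 0.50. Casp8 and Cflar on chromosome 1, 90.4 kb apart at their nearest probes, gave 0.23 and 0.09 at those probes, and Casp1 and Casp4 on chromosome 9, 29.4 kb apart, gave at least 1.25 and -0.24. The annotation of mm9 was not used here, so exon and intron are not given for single probes.

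The sequences before the starts of the members were read from the RefSeq promoter table of GRCm38.p6, which holds 48 starts of 35 of the 40 genes. Over 300 bases (250 before the start and 50 after it), the member promoters had a median GC content of 57.8% and 16 CpG, against 52.7% and 7 for all 32851 promoters. A GC box (GGGCGG, either strand) was found in 27 of 48 (56.2%, against 35.7%), a TATA box (TATAAA) in 3 (6.25%, against 13.6%), and an NF-kB motif (GGG, any 2 bases, then TTTCC) in 6 (12.5%, against 1.63%), those of Bbc3, Bcl2l1, Birc5, Mcl1 and both starts of Casp4. A cyclic AMP response element (TGACGTCA) was found for Birc2 only among members (2.08%, against 1.79%), an AP-1 motif (TGANTCA) for Bcl2a1d only (2.08%, against 7.81%), and an E-box (CACGTG) for Bax, Bbc3 and Casp1 (6.25%, against 7.15%). A match is a run of letters and not a binding site, and starts of 1 gene can overlap.

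The 250 bases before the start are shown for the 5 measured members with the largest difference upward and for the 2 with the largest downward, 5′ to 3′ on the strand of the gene with GRCm38.p6 coordinates; for Bcl2l11 and Birc2 the first of their 2 listed starts is given. Capitals mark the motifs above on either strand, which are GC boxes in all but Birc2, where they mark the cyclic AMP response element, and Mcl1, where the run is an NF-kB motif that overlaps a GC box:
Bok, chr1:93685325-93685574 (+ strand): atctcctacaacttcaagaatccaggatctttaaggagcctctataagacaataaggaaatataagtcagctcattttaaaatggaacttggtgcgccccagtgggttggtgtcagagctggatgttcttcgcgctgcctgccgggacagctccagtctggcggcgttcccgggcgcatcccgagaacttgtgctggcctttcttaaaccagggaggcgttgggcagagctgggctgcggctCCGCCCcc
Bcl2l11, chr2:128125788-128126037 (+ strand): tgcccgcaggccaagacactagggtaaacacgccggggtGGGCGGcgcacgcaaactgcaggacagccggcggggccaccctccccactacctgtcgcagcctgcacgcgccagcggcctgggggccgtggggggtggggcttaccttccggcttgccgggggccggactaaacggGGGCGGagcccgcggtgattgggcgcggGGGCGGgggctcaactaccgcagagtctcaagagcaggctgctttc
Bid, chr6:120916825-120917074 (- strand): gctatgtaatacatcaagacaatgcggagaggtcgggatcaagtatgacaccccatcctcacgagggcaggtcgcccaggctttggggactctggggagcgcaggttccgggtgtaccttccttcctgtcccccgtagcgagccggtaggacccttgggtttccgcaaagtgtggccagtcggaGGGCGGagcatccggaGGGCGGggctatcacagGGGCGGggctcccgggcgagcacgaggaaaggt
Birc2, chr9:7837058-7837307 (- strand): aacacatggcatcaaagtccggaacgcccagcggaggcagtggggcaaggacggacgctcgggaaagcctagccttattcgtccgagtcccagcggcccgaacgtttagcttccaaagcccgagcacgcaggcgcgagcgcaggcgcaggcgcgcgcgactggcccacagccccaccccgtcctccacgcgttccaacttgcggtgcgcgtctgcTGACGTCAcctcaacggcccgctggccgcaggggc
Mcl1, chr3:95658471-95658720 (+ strand): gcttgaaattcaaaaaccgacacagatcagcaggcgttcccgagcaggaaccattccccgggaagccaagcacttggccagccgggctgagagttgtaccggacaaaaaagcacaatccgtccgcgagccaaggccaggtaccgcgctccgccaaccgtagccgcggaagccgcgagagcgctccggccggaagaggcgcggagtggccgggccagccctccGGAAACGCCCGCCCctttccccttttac
Casp2, chr6:42264735-42264984 (+ strand): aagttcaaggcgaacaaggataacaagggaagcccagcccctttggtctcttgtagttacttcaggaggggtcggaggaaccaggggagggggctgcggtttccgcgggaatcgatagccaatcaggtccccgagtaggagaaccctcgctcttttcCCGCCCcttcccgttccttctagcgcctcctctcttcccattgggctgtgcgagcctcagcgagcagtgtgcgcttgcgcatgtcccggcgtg
Birc6, chr17:74528045-74528294 (+ strand): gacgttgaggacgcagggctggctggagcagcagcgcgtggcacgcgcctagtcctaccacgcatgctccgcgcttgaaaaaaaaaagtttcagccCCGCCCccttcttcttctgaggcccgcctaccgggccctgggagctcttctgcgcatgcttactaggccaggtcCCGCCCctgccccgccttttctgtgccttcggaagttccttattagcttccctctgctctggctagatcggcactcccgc
In these 7 sequences, GC boxes stand before genes that were higher (Bok, Bcl2l11, Bid, Mcl1) and before both that were lower (Casp2, Birc6). The NF-kB motif was found in front of Mcl1 (1.52), Bcl2l1 (0.05), Bbc3 (-0.22), Casp4 (-0.24) and Birc5 (-1.72 by its brightest probe). The part of these motifs in the differences was not tested.

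Genes that work with the members were read from a list of 50 genes on the array. Of the 46 above background on at least 1 array, 10 were at least 2-fold higher (21.7%, against 14.2% of all genes) and 10 at least 2-fold lower (21.7%, against 16.8%); with scaling to Gapdh these were 11 and 5, when the lower genes of the whole array also decreased, from 3925 to 2893. The median of the 44 measured genes was -0.23, near that of all measured genes. Their largest differences belonged to stress genes and p53, and their lowest values to genes of nuclease control, the inflammasome and mitochondria.

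The 3 genes of the unfolded protein arm were all at least 2-fold higher, beside 11.8% of all measured genes. Trib3, a pseudokinase induced by stress, was read at 181 in MHs and 2830 in Sox9+EpCAM- cells, with a log2 difference of 3.38 (10.4-fold). Ddit3, which encodes CHOP, a factor known to act upstream of Bcl2l11, was at 3130 and 30300, a log2 difference of 2.69 (6.46-fold), and Atf4, its activator, at 538 and 3100, a log2 difference of 1.94 (3.85-fold).

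Trp53, which encodes p53, had signals of 433 and 3330, a log2 difference of 2.36 (5.13-fold). Mdm2, the ubiquitin ligase and target of p53, was at 215 and 1230, a log2 difference of 1.93 (3.82-fold), and Cdkn1a, the cell cycle inhibitor p21, was 2.69-fold higher. The other 5 genes of the p53 group were below 0, and the group's median was -0.25.

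Dffa, the inhibitor of the caspase-activated nuclease, was lowest of the pathway genes with 2640 and 618, a log2 difference of -2.68 (6.40-fold lower). Pycard, the adaptor of the inflammasome, followed with 426 and 163 (3.91-fold lower), and Endog, a mitochondrial nuclease, with 2160 and 1050 (3.08-fold lower). Bnip3, a mitophagy receptor, was 2.59-fold lower and Moap1, a Bax-binding protein, 2.44-fold lower. In the mitochondrial group, 1 of 8 genes was at least 2-fold higher and 3 were lower (11.8% and 17.4% over all measured genes), with Cycs, which encodes cytochrome c, 2.08-fold lower and the IAP antagonist Htra2 2.54-fold higher; the median was -0.73.

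Among death receptors and adaptors, 1 of 7 measured genes was higher and 1 lower by at least 2-fold, which is near the 11.8% and 17.4% of all measured genes. Ripk1, the kinase that binds cIAP1, was 3.53-fold higher, and Tnfrsf10b, the receptor of TRAIL, 2.18-fold lower. Fadd and Tnfrsf1a differed by -0.21 and -0.15, and Fas, Tnfsf10 and Ripk3 were below background on both arrays, so that no difference was detectable for them. The nuclear lamina gene Lmnb1, a caspase substrate, was at least 4.54-fold higher.

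**Figure D4:**
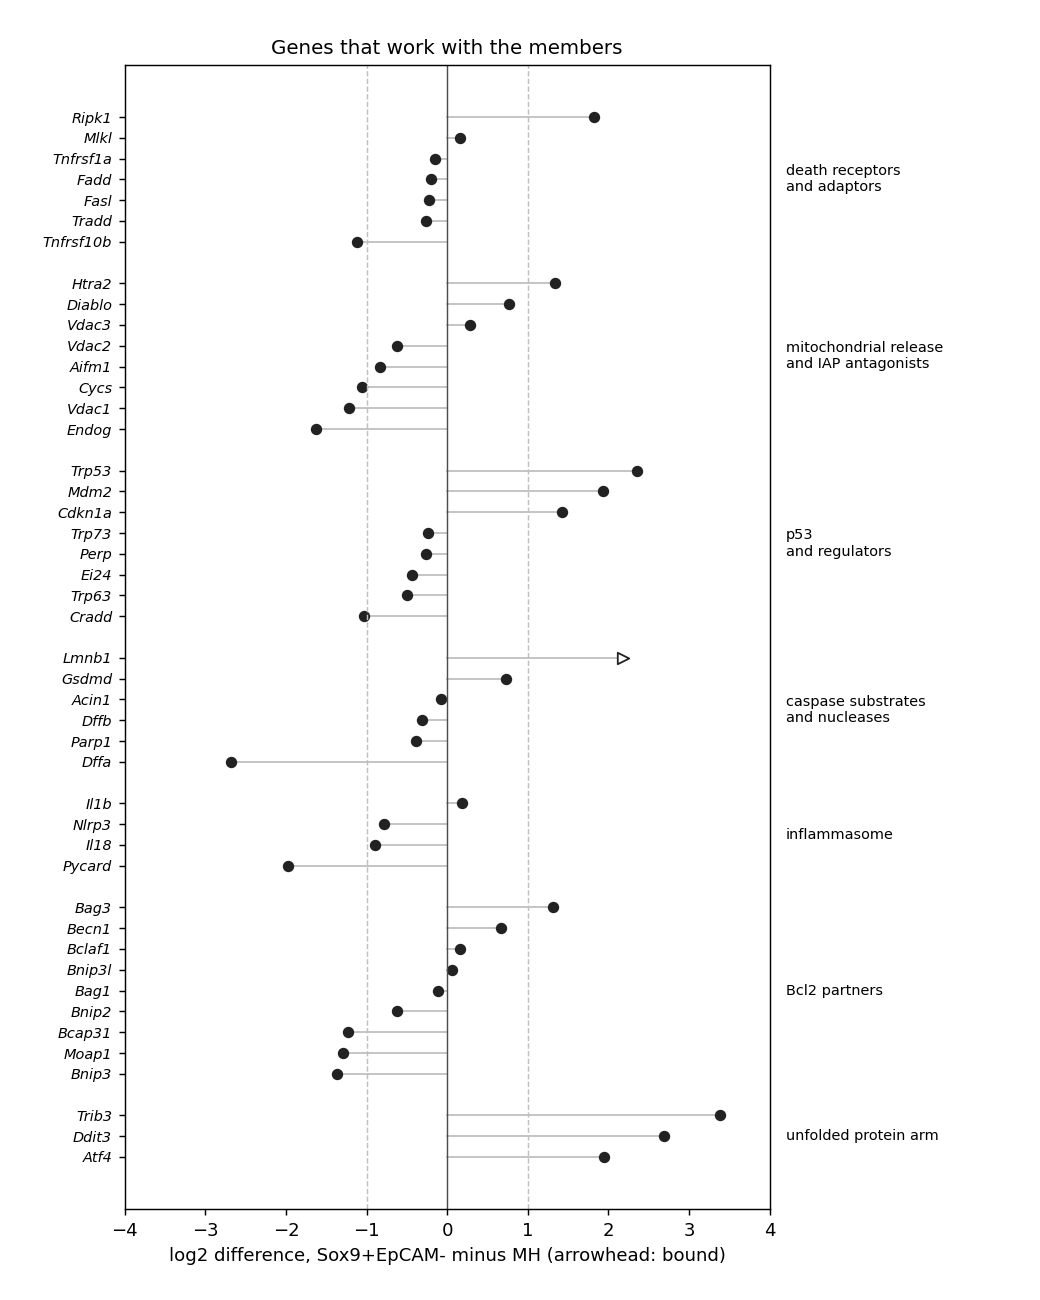
Log2 difference (Sox9+EpCAM- minus MH) of the genes that work with the members, grouped by function and ordered by value; dots are genes measured on both arrays, the arrowhead is the bound of Lmnb1, and dashed lines mark 2-fold. Trib3 (3.38), Ddit3 (2.69) and Trp53 (2.36) lie furthest right and Dffa (-2.68) furthest left.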

How the data were processed

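Total RNA of MHs and of Sox9+EpCAM- cells was labelled with Cy3 and hybridised by a service provider, 1 array each. The authors deposited the processed intensity of each spot from the scanner software (Feature Extraction 10.7.3.1), which takes off local background and spatial trends and leaves the arrays unscaled, and a table of ratio values, each of which is the intensity over its array's median. Here, controls were dropped, as were spots with an outlier mark on 1 or both arrays. Repeated spots were averaged, each array was divided by its 75th percentile, and log2 was taken. Where a gene had several probes, the brightest by mean log2 level represents it. A probe too dim on 1 array was given as a bound, computed against either its own signal or the lowest measurable signal there, whichever was higher. The rule of size was 2-fold, with 4-fold as a stricter one, since 1 array per group allows no test. Precision is limited by the number of arrays, and the quoted errors cover spot reading only. Files were read with pandas 2.3.3 and numpy 2.4.6 in Python 3.11.15, and limma 3.58.1 in R 4.3.3 gave the normexp correction (offset 50). Quantile normalization was done with numpy. The calculation was tested on simulated data.

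Every member is counted, and a few items are not reported here by name. A member's signals on both arrays are given where its brightest probe, or its bound, differed by at least 2-fold, where its probes differed by more than 2-fold from each other, or where it is among the best known genes of its role; of the other pathway genes, the 5 largest and 5 smallest differences are given, and any further gene was picked once its value was known. The members and gene lists were chosen with earlier results of these data known. Gene names and mm9 positions are those of the array design. Promoters were matched by symbol to RefSeq (GRCm38.p6), and 5 members had no entry. The alternatives were normexp, scaling to the median of measured probes or to Gapdh, quantile normalization, the median of all probes, outlier spots kept, the deposited ratio table, differences without the bound, measured genes only and the 4-fold rule. The median of all probes takes differences without the bound, also of probes below background on both arrays.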

Additional observations from a re-analysis of the deposited data

How the results depend on the processing

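No paired analysis was possible because both groups consist of a single array, so that leaving out a replicate or blocking on the slide was not run either, and slide and group cannot be told apart. The count of members at least 2-fold higher, 11, was 3 at 4-fold and 6 with normexp correction, and between 8 and 13 under the other alternatives; over all genes it went from 3320 to between 2087 and 4411 at 2-fold. The count at least 2-fold lower, 5, was 3 at 4-fold and between 4 and 6 otherwise, beside 3925 and between 2893 and 4914 for all genes. For the pathway genes, the 10 higher were 4 at 4-fold, and the 10 lower were 1 at 4-fold and 5 with scaling to Gapdh. The members' median of 0.26 ran from 0.08 (deposited table) to 0.52 (Gapdh), while the median of all genes shifted by -0.18 and 0.27 in the same settings. Of 291 values of 33 single members under 9 alternatives, 273 stayed within 1.5-fold, 18 moved further and 0 of the called values changed sign. Much of this was fixed in advance. Scaling to Gapdh, to the median of measured probes and in the deposited table shifts all members by nearly the same amount (0.27, -0.02 and -0.18). Members measured on both arrays did not change with outlier spots kept, without the bound or with measured genes only. The count of 273 therefore says little about how firm the values are. Among values under 2-fold the sign changed for Bbc3 (0.05) and Casp4 (0.02) with Gapdh, Bcl2l1 (-0.14) in the deposited table, Bcl2l2 (-0.37) and Bcl2l15 (0.39) with the median of all probes, and for Bcl2a1c and Cflar, which lay near 0 before or after. With the median of all probes, Birc3 was 1.93 and Birc5 was -0.67. That median includes probes below background, so the values of Bcl2l2, Bcl2l15 and Birc3 rest in part on undetected signals. Bounds for Apaf1, Bcl2l14 and Casp1 were under 2-fold after normexp correction (0.28, 0.40 and 0.26 on the log2 scale), and Casp9 had no bound there. The cause was not tested. Genes below background on both arrays may still differ at levels under 27.8 (MH) and 18.4 (Sox9+EpCAM-).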
